A study of Homo sapiens with 4 samples.

Results

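UCA1 (urothelial cancer associated 1) is a long noncoding RNA (lncRNA) gene on chromosome 19, and it was taken here as every row of the deposited lncRNA table that carries the gene name UCA1. These rows numbered 4 of the 54708 transcripts in the table, 1 of them annotated and 3 assembled by the authors without a match in the annotation. No row carried one of the older names of the gene, and no circRNA of the deposited circRNA table was named UCA1.

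Ribosomal RNA-depleted total RNA was sequenced from A549/DDP, its parent A549, HCC827/GR and its parent HCC827. A549 and HCC827 are established human lung adenocarcinoma lines, and HCC827 carries an activating EGFR deletion. A549/DDP was made resistant to cisplatin and HCC827/GR to the EGFR kinase inhibitor gefitinib by stepwise exposure, and the drugs were withdrawn before RNA was taken. The sample labels call these lines A549/R and HCC827/R and name cisplatin for both, whereas the paper gives gefitinib for HCC827/GR, and the paper's names are used here. The sources used here do not give whether a resistant line is a single clone. Each condition had 1 library, so no difference was tested, every ratio compares 2 libraries, and intervals are exact 95% intervals that cover counting error only.

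UCA1 was first described in bladder carcinoma and is transcribed in many epithelial tumours while being low in most adult tissues. It is found in both cytoplasm and nucleus, it binds RNA-binding and chromatin proteins, and it has been proposed to take up microRNAs. In tumour cell lines, including lung adenocarcinoma lines, high UCA1 has been linked to resistance to cisplatin and to EGFR kinase inhibitors, the drug classes of the resistant lines studied here.

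The libraries held 4.34 to 5.24 Gb of aligned bases, of which lncRNA transcripts took between 3.24% and 8.02%. HCC827/GR stood apart, with 7807 transcripts above 0 FPKM, whereas the other libraries had 23807 to 29256. The median annotated lncRNA transcript above 0 rested on 63 read pairs in HCC827/GR, against 13.8 in HCC827, while A549/DDP had 4.61 and A549 had 3.49. Of the marks of origin given here, CDKN2B-AS1 and circRNA of ALDH1A1 separated the A549 lines from the HCC827 lines, and circRNAs of CPS1 did not. CDKN2B-AS1, which lies in a region that A549 lacks, had 3.05 read pairs in A549/DDP and 0 in A549, while HCC827/GR had 179 and HCC827 had 338. circRNA of ALDH1A1, an aldehyde dehydrogenase abundant in A549, had 62674 and 69461 estimated counts in A549/DDP and A549, against 194 and 23 in HCC827/GR and HCC827. circRNAs of CPS1, a urea cycle enzyme also listed as a mark of A549, had 39876 estimated counts in A549/DDP against 2971 in A549. They had 6134 in HCC827/GR against 39278 in HCC827, so among the parents the order was the reverse of that mark.

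UCA1 was high in HCC827/GR, lower in HCC827, barely detected in A549 and listed at 0 in A549/DDP. Summed over its 4 transcripts, it had 0 FPKM in A549/DDP and 0.182 FPKM in A549, and 49.7 FPKM in HCC827/GR and 8.96 FPKM in HCC827. FPKM, computed by the authors with StringTie, scale the fragments on a transcript to its length and to the depth of the library. These levels rested on 0 and 6 read pairs in A549/DDP and A549, and on 1653 and 346 read pairs in HCC827/GR and HCC827. A read pair is counted here as 302 aligned bases.

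**Figure D1:**
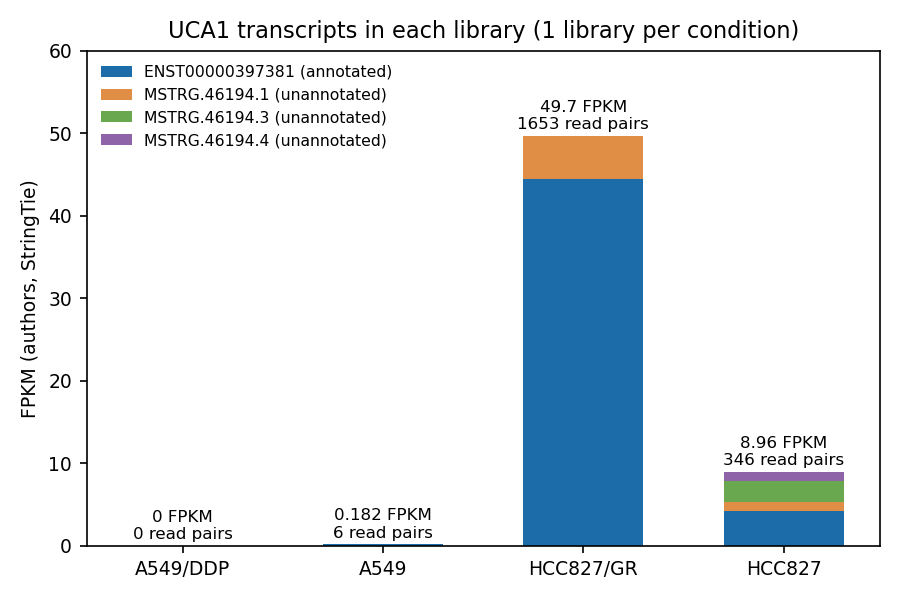
FPKM of the 4 UCA1 transcripts, stacked, in each of the 4 libraries, with the summed FPKM and read pairs printed above each bar. HCC827/GR reaches 49.7 FPKM and HCC827 8.96, while A549 has 0.182 FPKM from 6 read pairs and A549/DDP has 0.

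The annotated transcript is ENST00000397381, with 3 exons and 2299 bases, on the plus strand of chromosome 19 from 15828961 to 15836320. It starts 14 bases after the start and ends 1 base before the end of the UCA1 gene in RefSeq on GRCh38.p14 (15828947 to 15836321). The sources used here do not give the genome build of the deposited coordinates. The unannotated transcripts have 4 exons each and the class code for a splice variant that shares a junction with the annotation. MSTRG.46194.1 (1941 bases) runs from 15828926 to 15836030, and thus begins 21 bases before and ends 291 bases before the RefSeq gene. MSTRG.46194.3 (2237 bases) and MSTRG.46194.4 (2228 bases) share the same outer ends, 15828971 to 15836394, and differ by 9 bases in spliced length. The exon boundaries were not analysed here, so the junctions in which the variants differ cannot be named. The coding potential scores of the 3 variants lay between -1.14 and -1.13 (Coding Potential Calculator) and between -0.04 and -0.03 (Coding-Non-Coding Index). All 43374 unannotated transcripts had scores below 0 on both scales. The paper used cuts on both scores to pick lncRNAs, and the highest scores listed were -1.0001 and -0.00041. Scores below 0 thus reflect that selection.

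**Figure D2:**
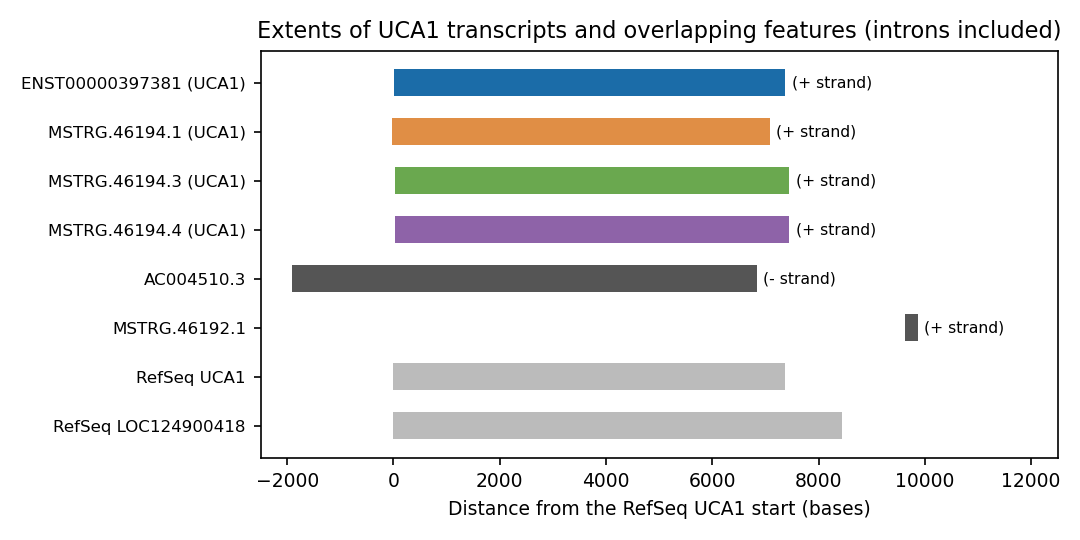
Extent of each UCA1 transcript, of AC004510.3 and MSTRG.46192.1, and of the RefSeq genes UCA1 and LOC124900418, in bases from the RefSeq start of UCA1, with introns included since exon positions were not analysed here. The 4 UCA1 transcripts start within 45 bases and end within 364 bases of each other, and AC004510.3 overlaps them on the other strand.

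RefSeq also places a gene called protein-coding, LOC124900418, over UCA1 (15828947 to 15837380). Its entry in the promoter table starts on the plus strand inside the UCA1 transcripts, 6022 bases after the UCA1 start, and RNA from there would have been read on the same strand and over the same bases as UCA1. The window is shown because reads of these genes were not separated here. It covers chr19:15834719-15835018 on the plus strand of GRCh38.p14, as given by RefSeq, with 250 bases before the annotated start in lower case and the 50 bases from that start in capitals.
LOC124900418 start window: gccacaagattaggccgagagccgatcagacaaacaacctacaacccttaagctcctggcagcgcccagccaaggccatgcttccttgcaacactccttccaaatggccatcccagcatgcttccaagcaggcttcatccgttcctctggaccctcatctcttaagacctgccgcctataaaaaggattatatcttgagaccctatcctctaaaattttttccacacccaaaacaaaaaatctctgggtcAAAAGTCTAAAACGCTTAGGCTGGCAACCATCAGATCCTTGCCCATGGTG

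The comparison of HCC827/GR with HCC827 asks how UCA1 stood in a line resistant to an EGFR inhibitor. Summed UCA1 was 49.7 FPKM in HCC827/GR and 8.96 FPKM in HCC827, a log2 ratio of 2.46 with 0.1 FPKM added to each library. By read pairs per aligned base the ratio was 5.63 (interval 5.01 to 6.34). The median of 717 annotated lncRNA transcripts that reached 1 FPKM in each library was itself 1.38-fold higher in HCC827/GR (log2 0.46), and UCA1 was 4.03-fold higher relative to that median.

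The annotated transcript carried most of the difference. ENST00000397381 had 44.5 FPKM on 1505 read pairs in HCC827/GR and 4.15 FPKM on 165 read pairs in HCC827, a ratio of read pairs of 10.8 (9.15 to 12.7). Its mean coverage per base was 198 in HCC827/GR and 21.7 in HCC827. MSTRG.46194.1 had 5.19 FPKM on 148 read pairs in HCC827/GR and 1.20 FPKM on 40.5 read pairs in HCC827, a ratio of 4.25 (2.99 to 6.17). The other variants were lower in HCC827/GR. MSTRG.46194.3 was listed at 0 in HCC827/GR and at 2.49 FPKM on 96.8 read pairs in HCC827, with an interval of the ratio of read pairs from 0 to 0.0457. MSTRG.46194.4 was listed at 0 in HCC827/GR and at 1.12 FPKM on 43.3 read pairs in HCC827, with an interval from 0 to 0.106. Of the 4 UCA1 transcripts, 2 were thus at least 2-fold higher and 2 at least 2-fold lower in HCC827/GR. The 2 lower ones passed the filter only through HCC827, so at 0 in HCC827/GR no other call was open to them. Over all 32851 transcripts that reached 0.1 FPKM in either library, 18.4% were called higher and 78.4% lower by the same rule.

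Among 308 annotated transcripts with 100 to 250 read pairs in HCC827, a range chosen after the UCA1 values were seen, 34.1% were at 0 in HCC827/GR and 9.74% were at least 2-fold higher by read pairs. ENST00000397381 of UCA1 had the largest ratio of these 308 and was the only one at 10-fold or more. A transcript of TUG1, a nuclear lncRNA, followed with a ratio of 8.07. Summed over its transcripts, UCA1 had 346 read pairs in HCC827, outside this range, and a smaller ratio of 5.63. Genes were ranked by the FPKM of annotated transcripts over 3252 lncRNA genes that reached 1 FPKM in any library. UCA1 stood 40th in HCC827/GR, above 98.8% of the genes, and 567th in HCC827, above 82.6%. Only 1436 of the genes were above 0 in HCC827/GR, against 2703 in HCC827, so these percentages are not directly comparable. By log2 ratio with 1 FPKM added, UCA1 (3.14) stood 104th of these 3252 genes, and the median gene had a log2 ratio of -0.65.

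**Figure D3:**
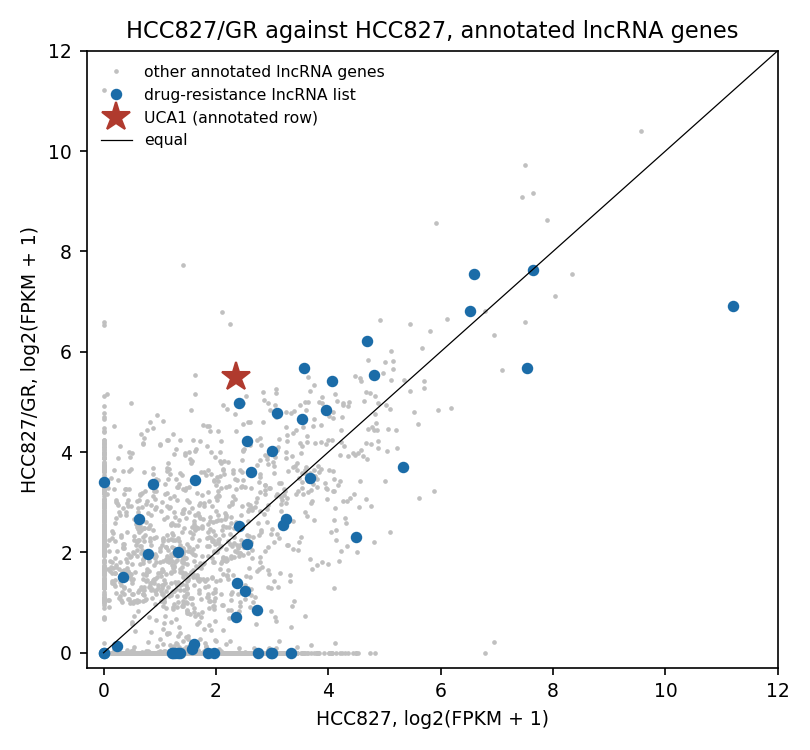
FPKM of 3252 annotated lncRNA genes in HCC827/GR (vertical axis) against HCC827 (horizontal axis), both as log2(FPKM + 1), with UCA1 as a star, the drug-resistance lncRNA list as filled circles and the line of equal values. UCA1, with 44.5 FPKM on its annotated transcript in HCC827/GR and 4.15 FPKM in HCC827, lies above the line, while the points along the horizontal axis are genes listed at 0 in HCC827/GR.

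The make-up of the UCA1 signal differed between these libraries, as did that of other genes, given below. ENST00000397381 held 91.0% of the UCA1 read pairs in HCC827/GR (interval 89.6 to 92.4) and 47.8% in HCC827 (42.3 to 53.1). MSTRG.46194.1 held 8.96% in HCC827/GR (7.62 to 10.4) and 11.7% in HCC827 (8.64 to 15.7), and these intervals overlap. MSTRG.46194.3 held 0% in HCC827/GR, with an upper limit of 0.223%, and 28.0% in HCC827 (23.4 to 33.1). MSTRG.46194.4 held 0% in HCC827/GR, with the same upper limit, and 12.5% in HCC827 (9.14 to 16.4). StringTie divides the reads that overlapping transcripts share, and the error of that division is not in the intervals.

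**Figure D4:**
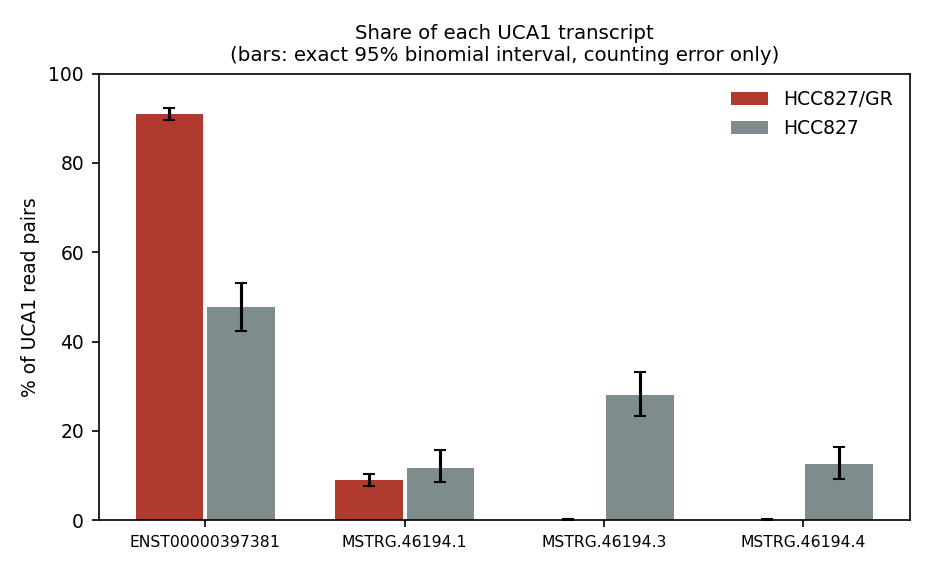
Share of UCA1 read pairs on each of its 4 transcripts in HCC827/GR (left bars) and HCC827 (right bars), with exact 95% binomial intervals. The annotated transcript holds 91.0% in HCC827/GR and 47.8% in HCC827, and MSTRG.46194.3 and MSTRG.46194.4 are at 0 in HCC827/GR.

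Other transcripts were also often at 0 in HCC827/GR. Of 86 variants of the same class at 1 FPKM or more in HCC827, 62 (72.1%) were listed at 0 in HCC827/GR, as were 65.7% of 2476 annotated transcripts at that level. In A549/DDP, 26.0% of 77 such variants at 1 FPKM or more in A549 were at 0. The annotated share was also read for genes with annotated and unannotated transcripts above 0 in HCC827 and an annotated one above 0 in HCC827/GR. Over these 18 genes, its median was 100% in HCC827/GR and 55.3% in HCC827, with 15 genes higher and 3 lower in HCC827/GR. An unannotated transcript above 0 was required in HCC827 but not in HCC827/GR. This choice favours a higher annotated share in HCC827/GR, so the direction is no separate result. The part of these values at 0 in the UCA1 shares was not tested.

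The comparison of A549/DDP with A549 asks the same of a line resistant to cisplatin. UCA1 was listed at 0 in A549/DDP and at 0.182 FPKM in A549, all of it on ENST00000397381 and on 6 read pairs. The interval of the ratio of read pairs reached from 0 to 0.798, and 3 read pairs on this transcript would have been 0.0852 FPKM in A549/DDP. Of 638 annotated transcripts with 5 to 7 read pairs in A549, a range chosen after the UCA1 values were seen, 30.1% were at 0 in A549/DDP and 55.5% were at least 2-fold lower. The only UCA1 transcript that passed the filter in this pair counted as lower, as did 37.2% of 34809 transcripts, while 45.7% counted as higher. It passed only through A549, so at 0 in A549/DDP no other call was open to it. With 1 FPKM added the log2 ratio was -0.24. The 3 unannotated variants were at 0 in both A549/DDP and A549.

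The parental lines also differed in UCA1. UCA1 had 8.96 FPKM in HCC827 and 0.182 FPKM in A549, a ratio of read pairs of 47.8 (21.7 to 131), where the median annotated transcript was 1.21-fold higher in HCC827 (950 transcripts). All 4 UCA1 transcripts were called higher in HCC827 than in A549, as were 58.3% of 40908 transcripts, while 32.3% were called lower. The unannotated ones were at 0 in A549 and passed the filter only through HCC827, so no other call was open to them. They overlap ENST00000397381, so the 4 calls are not separate observations. Between the resistant lines, UCA1 had 1653 read pairs in HCC827/GR and 0 in A549/DDP, and the interval of the ratio had a lower limit of 466. The order of the levels was therefore HCC827/GR, HCC827, A549 and A549/DDP, and of these only A549 and A549/DDP lay at or near the limit of detection.

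UCA1 lies among genes of the cytochrome P450 family CYP4F, fatty acid hydroxylases, and of the olfactory receptor family OR10H. RefSeq places 25 other genes within 200 kb, 9 of them named CYP4F, of which 4 are pseudogenes, and 5 named OR10H. mRNAs of this region were not analysed here. The lncRNA table held only 3 other transcripts in this range. AC004510.3 (ENST00000589310, 2 exons, minus strand, 15827045 to 15835787) overlaps UCA1 on the opposite strand. It was listed at 0 in HCC827/GR and at 0.457 FPKM on 3.50 read pairs in HCC827, and at 0 in A549/DDP and A549. The sources used here do not say whether the reads keep their strand, so reads of AC004510.3 and UCA1 may not have been told apart.

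MSTRG.46192.1, a single exon of 242 bases on the plus strand, starts 2.18 kb after the last UCA1 transcript ends (15838571 to 15838812). It was listed at 0 in HCC827/GR and at 3.36 FPKM on 14.1 read pairs in HCC827, and at 0 in A549/DDP and A549. LLNLF-158E9.1 (ENST00000623833), 68.2 kb downstream, had 4.64 read pairs (0.113 FPKM) in A549/DDP against 0 in A549, and it was at 0 in HCC827/GR and HCC827. None of the 3 transcripts was above 0 in HCC827/GR, where only 7807 of all 54708 transcripts were. The 2 that passed the filter in the HCC827 pair did so only through HCC827. Both counted as lower in HCC827/GR, as did 78.4% of all transcripts that passed. No circRNA lay within 200 kb. Over annotated lncRNA transcripts of chromosome 19 that reached 1 FPKM in each library, the median was 1.50-fold higher in HCC827/GR than in HCC827 (42 transcripts), against 1.38-fold over all chromosomes.

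Genes with a pattern like that of UCA1 were sought by the distance between log2(FPKM + 1) values centred on their mean over the 4 libraries. With 4 points this is a description only. The 5 nearest of 3252 genes were PAX8-AS1, LINC01057, AFAP1-AS1, HCP5 and RP11-400N13.2, at distances of 0.69, 0.83, 0.91, 0.95 and 1.05 on the log2 scale, where the median gene was at 4.74. All 5 were higher in HCC827/GR than in HCC827 and under 1 FPKM in A549/DDP and A549. They were chosen on these same values, so this likeness is no separate result.

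PAX8-AS1, antisense to the gene of a transcription factor of thyroid and kidney development, had 29.5 FPKM in HCC827/GR and 3.39 FPKM in HCC827, and 0.0395 FPKM in A549/DDP and 0.512 FPKM in A549. LINC01057 had 92.6 FPKM in HCC827/GR and 3.75 FPKM in HCC827, and 0.260 FPKM in A549/DDP and 0.693 FPKM in A549. AFAP1-AS1, antisense to the gene of an actin filament-associated protein, had 30.4 FPKM in HCC827/GR and 4.31 FPKM in HCC827, and 0.495 FPKM in A549/DDP and 0.739 FPKM in A549. The A549/DDP and A549 values of PAX8-AS1 rested on 7.13 and 8.97 read pairs, and those of LINC01057 on 3.82 and 9.88. HCP5, from the major histocompatibility complex region, had 23.3 FPKM in HCC827/GR and 5.10 FPKM in HCC827, and 0.0537 FPKM in A549/DDP and 0.381 FPKM in A549. RP11-400N13.2 had 17.8 FPKM in HCC827/GR and 1.57 FPKM in HCC827, and was listed at 0 in A549/DDP and A549. Of these 5 genes, 4 thus had a lower FPKM in A549/DDP than in A549, values that were part of the choice. Of 972 genes under 1 FPKM in A549/DDP and A549 and at 1 FPKM or more in HCC827, 73 (7.51%) were at least 2-fold higher in HCC827/GR by FPKM, 22 at least 5-fold higher, and 743 were at 0.

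**Figure D5:**
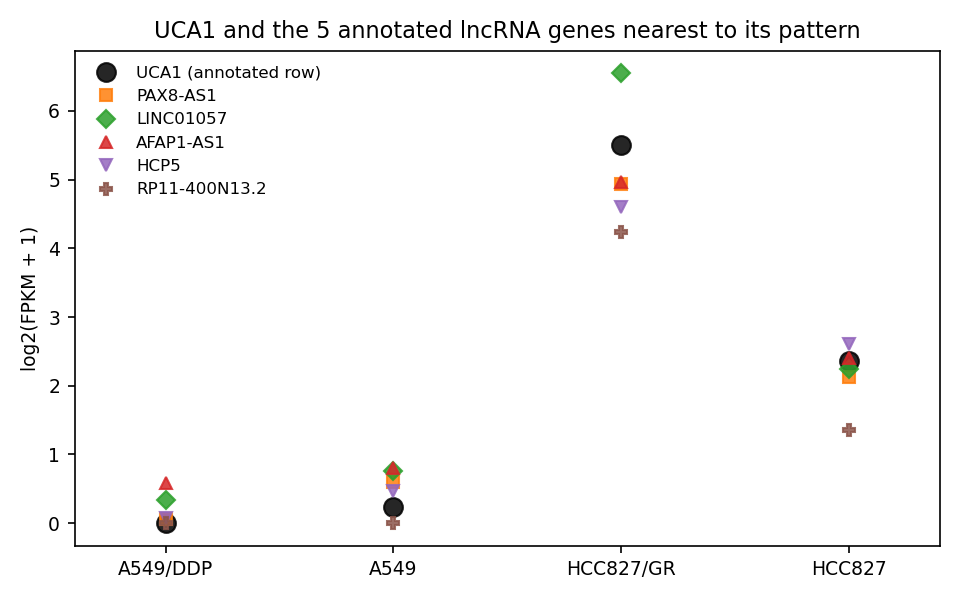
Levels as log2(FPKM + 1) of UCA1 (its annotated transcript, large circles) and of the 5 annotated lncRNA genes nearest to its pattern, in each of the 4 libraries. All 6 genes are highest in HCC827/GR, where they range from 17.8 to 92.6 FPKM, and are under 1 FPKM in A549/DDP and A549. The 5 genes were chosen on these values.

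UCA1 was set beside a list of 64 names of other lncRNAs linked to drug resistance, of which 50 reached 1 FPKM in any library on annotated transcripts. CDKN2B-AS1, with 56.9 FPKM in HCC827 over all its transcripts, was on the list but not among the 50. In HCC827/GR, 14 of the 50 were at least 2-fold higher than in HCC827 and 20 at least 2-fold lower, with 1 FPKM added, where 19.7% and 44.5% of 3252 genes were. The median log2 ratio of the list was -0.15 and that of all genes -0.65. In A549/DDP, 4 were higher and 3 lower than in A549, where 7.41% and 8.76% of all genes were. In HCC827, 23 were higher and 6 lower than in A549, where 29.2% and 12.4% of all genes were. No member was at least 2-fold lower in A549/DDP and at least 2-fold higher in HCC827/GR, where 39 of all 3252 genes were, and UCA1 itself did not pass with 1 FPKM added (log2 ratio of -0.24 in A549/DDP).

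Of the 5 members with the highest FPKM, SNHG6 had its FPKM in the same order over the libraries as UCA1, and the others did not. MALAT1, a nuclear speckle lncRNA, had 120 FPKM in HCC827/GR and 2350 FPKM in HCC827, and 211 FPKM in A549/DDP and 2034 FPKM in A549. H19, an imprinted lncRNA, had 50.5 FPKM in HCC827/GR and 185 FPKM in HCC827, and 2.56 FPKM in A549/DDP and 3.64 FPKM in A549. GAS5, a snoRNA host, had 197 FPKM in HCC827/GR and 199 FPKM in HCC827, and 105 FPKM in A549/DDP and 73.5 FPKM in A549. SNHG6, another snoRNA host, had 186 FPKM in HCC827/GR and 95.8 FPKM in HCC827, and 18.5 FPKM in A549/DDP and 23.6 FPKM in A549. By read pairs its order in the A549 pair was the reverse, with 164 in A549/DDP and 151 in A549. ZFAS1, also a snoRNA host, had 112 FPKM in HCC827/GR and 90.8 FPKM in HCC827, and 61.7 FPKM in A549/DDP and 46.4 FPKM in A549. None of these 5 was 2-fold higher in either resistant line with 1 FPKM added.

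Genes that studies of other tumours tie to UCA1 were read only through their circRNAs, which need not follow the mRNA. Of 46 such genes, 15 hosted a circRNA in the table. By counts scaled to the circRNA total of each library, 1 of the 15 was at least 2-fold higher and 5 at least 2-fold lower in HCC827/GR than in HCC827 with an interval that leaves out 1, where 13.2% and 29.6% of 2232 host genes were. In A549/DDP, 0 were higher and 1 lower than in A549, where 3.07% and 8.52% of 2277 host genes were.

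Among regulators reported at the UCA1 promoter was ARID1A, a chromatin remodelling subunit reported to restrain UCA1 in bladder cancer cells. Its circRNA had 0 estimated counts in HCC827/GR and 149 in HCC827. In A549/DDP and A549 it had 203 and 201, which scaled to library totals was a ratio of 0.907 (0.74 to 1.11). circRNAs of SMAD2, a mediator of TGF-beta signalling, had 389 estimated counts in HCC827/GR and 3969 in HCC827, a ratio of 0.130 (0.116 to 0.144), and 2279 in A549/DDP and 2519 in A549. HIF1A, the hypoxia-inducible factor subunit, had 11216 estimated counts in A549/DDP and 22337 in A549, a ratio of 0.451 (0.441 to 0.461). It had 7840 in HCC827/GR and 8486 in HCC827, which scaled to library totals was a ratio of 1.22 (1.18 to 1.26). TEAD1, the DNA-binding partner of the coactivator YAP, had 3998 in HCC827/GR and 10196 in HCC827, a ratio of 0.518 (0.499 to 0.538), and 5159 in A549/DDP and 4463 in A549.

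Among proteins reported to bind UCA1 RNA, IGF2BP1, an RNA-binding protein, was the only one of the 15 hosts that was at least 2-fold higher in HCC827/GR, with 214 estimated counts in HCC827/GR and 63 in HCC827, a ratio of 4.49 (3.38 to 6.04). EZH2, the histone methyltransferase of the Polycomb complex, had 134 in HCC827/GR and 743 in HCC827, a ratio of 0.238 (0.197 to 0.287). HNRNPA1, an RNA-binding protein of splicing, had 2357 in HCC827/GR and 3519 in HCC827, a ratio of 0.885. Among genes reported to change with the UCA1 level, PKM, a pyruvate kinase of glycolysis, had 17475 in HCC827/GR and 13198 in HCC827, a ratio of 1.75 (1.71 to 1.79), and a ratio of 0.679 in A549/DDP. circRNAs of ABCC1, a drug efflux transporter, had 5634 in A549/DDP and 9525 in A549, a ratio of 0.531, and a ratio of 0.826 in HCC827/GR. ZEB1, a repressor of epithelial genes, had 0 in HCC827/GR and 166 in HCC827, and ABCB1, another efflux transporter, had 1 in HCC827/GR and 19 in HCC827, a ratio of 0.0696 (0.00167 to 0.438).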

How the data were processed

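Transcripts named UCA1 were read from the deposited lncRNA table, which gives the authors' FPKM and mean coverage per transcript from StringTie, and for unannotated transcripts their coding potential scores. Per the paper, the authors aligned Cutadapt-trimmed reads by Bowtie 2 and TopHat2. StringTie then assembled the transcripts, which were merged before StringTie and Ballgown estimated their levels. TopHat is also named in the submitters' processing notes. The authors' estimated counts of circRNAs come from the deposited circRNA table, whereas the sources used here give neither their tool nor the genome build. No mRNA rows were used.

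Coverage divided by FPKM gave the aligned bases of each library. Coverage times length, divided by the commonest base total of annotated single-exon transcripts (302), gave read pairs, rounded for intervals. A transcript that reached 0.1 FPKM in either library of a pair was called higher at a ratio of 2 or more and lower at 0.5 or less, with 0.1 FPKM added. Gene values are sums over annotated transcripts, kept where any library reached 1 FPKM, with 1 FPKM added. Ratios have exact conditional Poisson intervals and shares exact Clopper-Pearson intervals, at 95%. A floor of 3 read pairs stood in for a count of 0 only in plain ratios given against the floor. Intervals, shares and calls kept the 0. Read pairs are not independent molecules. circRNA counts were summed per host gene and scaled to library totals.

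UCA1, the gene lists and the thresholds were chosen with earlier results of these data known. The text names UCA1, the lncRNA transcripts within 200 kb that reached 1 FPKM (the 2 others there, TUG1, CDKN2B-AS1 and LOC124900418 were named after values were seen), the 5 genes nearest in pattern, the 5 most abundant members of the resistance list and those at least 2-fold lower in A549/DDP and higher in HCC827/GR, and of the linked host genes the 5 with most counts and those past 2-fold with an interval without 1. Alternatives were other pseudocounts, filters, folds, windows, scalings and choices of transcript. Calls and intervals were tested on simulated data. RefSeq (GRCh38.p14) was used for names, neighbours and the sequence shown. UCA1 itself was not matched in the RefSeq promoter table, so its promoter motifs were not counted. The work used matplotlib 3.10.9, scipy 1.17.1, numpy 2.4.6 and pandas 2.3.3 in Python 3.11.15.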

Additional observations from a re-analysis of the deposited data

Results flagged for a closer look

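UCA1 went in opposite directions in the resistant lines. With 0.1 FPKM added, its log2 ratio was 2.46 in HCC827/GR over HCC827 and -1.49 in A549/DDP over A549. The first rested on 1653 read pairs in HCC827/GR and 346 in HCC827, and the second on 0 in A549/DDP and 6 in A549. With 1 library per condition the difference between the pairs was not tested.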

How the results depend on the processing

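The direction of the UCA1 ratio held in HCC827/GR over HCC827 and in HCC827 over A549 under each of 8 alternatives. Another pseudocount cannot reverse a direction, and the annotated and the leading transcript are the same, so not all of these could have changed it. In A549/DDP over A549 the direction could not change, since A549/DDP had 0 read pairs and A549 had 6. The size of the ratio moved in all 3 comparisons. In HCC827/GR over HCC827 the log2 ratio was 1.71 when rescaled to TPM of lncRNAs, 2.0 when rescaled to the median ratio of annotated transcripts, and 3.39 over the annotated transcript alone, which was also the leading one. In A549/DDP over A549 it was -0.24 with 1 FPKM added, and in HCC827 over A549 it was 3.08 with 1 FPKM added, 4.25 in TPM of lncRNAs and 3.92 over the annotated transcript. The plain ratio of read pairs, chosen after seeing the data, gave 2.49, -1.09 against the floor, and 5.58. In A549/DDP over A549, 18683 transcripts were called with 1 FPKM added, against 28872 with 0.1 FPKM. A window of 500 kb held 17 lncRNA transcripts other than UCA1. Of the 5 genes nearest in pattern, 3 were shared with 0.1 FPKM added, 1 by correlation, and 4 with all UCA1 transcripts summed, which was chosen after seeing the data. Of the resistance list, 14 members passed 2-fold in A549/DDP with 0.1 FPKM added, against 7 with 1 FPKM. No paired analysis was possible because each group of a comparison had 1 library and thus no second replicate number to pair. A fit over both lines with line as a block, which would treat different drugs as replicates, was not run. The few UCA1 read pairs limit the A549 pair, with 0 in A549/DDP and 6 in A549. On the annotated transcript, 3 read pairs equal 0.0852 FPKM in A549/DDP and 0.0908 FPKM in A549. In HCC827/GR they equal 0.0886 FPKM and in HCC827 0.0752 FPKM. The cause of these shifts was not tested.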
